A study of Homo sapiens with 6 samples.

Results

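The cornified envelope and terminal differentiation genes are 48 genes whose products build, cross-link, seal or shed the outermost layer of squamous epithelium. They were chosen by name, as a fixed list of symbols, with earlier results of these data known. Of the 48 genes, 47 stood in the deposited table of 25349 genes, and 34 had enough reads to enter the test, which covered 14661 genes in all. TGM3 was absent from the table, and 13 further genes were too low to test.

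SCC-9 cells are a long-established human line grown out of a tongue squamous carcinoma. They were grown in serum-containing medium with hydrocortisone, so both groups were exposed to this glucocorticoid. By lipofection, they received 10 nM of an siRNA targeting MKI67 exon 7 (siE7) or of a control siRNA (siNC) on day 0 and again on day 2, after passage. MKI67 encodes the proliferation antigen Ki67. RNA was taken on day 4, and each group had 3 poly(A)-selected libraries. Of the 3 exon 7 siRNAs in the methods, the one used here is not named. Nothing says that the 3 libraries of a group came from separate cultures, so p-values measure the spread between these libraries, which may be technical.

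The cornified envelope replaces the plasma membrane of a dying keratinocyte. Transglutaminases cross-link precursor proteins such as involucrin and the small proline-rich proteins (SPRR) under the membrane, starting on a scaffold of the plakins envoplakin and periplakin, and ceramides are attached to its outer face. Kallikrein proteases then cut the junctions between the dead cells so that they are shed, and inhibitors such as LEKTI, the product of SPINK5, hold these proteases back. Lining epithelium of the mouth forms such envelopes only in part, and squamous carcinomas keep a varying share of the programme.

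The libraries held 25608192 to 29550264 counts on genes. Levels are given as CPM, counts scaled to library size with TMM factors (trimmed mean of M-values). Differences between siE7 and siNC come from the quasi-likelihood F-test of edgeR, with Benjamini-Hochberg adjustment over all 14661 genes. A gene was called higher or lower when its adjusted p was under 0.05, and was a differentially expressed gene (DEG) when its log2 fold change also lay beyond 1 in either direction. MKI67 itself stood at 1072, 1029 and 1077 CPM in the siNC libraries and at 112, 125 and 108 CPM in the siE7 libraries, a log2 fold change of -3.21 (SE 0.11, edgeR adjusted p = 6.7e-08). The exact two-sided permutation test of 3 libraries against 3 cannot give a p below 0.1, the value it gave for MKI67. siE7 replicate 1 stood apart from siE7 replicates 2 and 3 on the second principal component, which held 19.8% of the variance. All 10 markers of squamous epithelial cells were in the table, summing to 18490 to 19260 CPM with siNC and 18420 to 23990 CPM with siE7. Most of that sum was keratin, and the single markers moved with the group. KRT5 (log2 fold change -0.60), CDH1 (-1.03), EPCAM (-0.77), DSP (-0.38) and TP63 (-0.33) were lower with siE7, KRT17 (0.70) was higher, and their part in the results below was not tested. Markers of fibroblasts summed to at most 24.2 CPM, and those of leukocytes, endothelial cells and melanocytes to under 0.76 CPM each. PTPRC, CD3E, MLANA and TYR were absent from the table. In such bulk libraries, fewer cells making a transcript and less transcript per cell cannot be told apart.

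Several of these genes sit side by side in the genome, and their promoter letters differ between the families. The windows below are of clustered SPRR and serpin genes, the kallikrein KLK5, and IVL and SBSN, chosen to show how the families differ. Each gives the 200 bases before the RefSeq start of the gene on GRCh38.p14, written 5′ to 3′ along the gene's strand. Capitals mark TGANTCA (N is any base), a loose form of the letters bound by the transcription factor AP-1, and TATAAA, the TATA box.
SPRR1A (chr1:152983881-152984080, + strand): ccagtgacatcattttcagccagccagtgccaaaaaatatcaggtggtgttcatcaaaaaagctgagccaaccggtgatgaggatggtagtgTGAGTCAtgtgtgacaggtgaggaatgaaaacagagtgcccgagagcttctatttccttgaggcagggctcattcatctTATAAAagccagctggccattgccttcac
SPRR1B (chr1:153031003-153031202, + strand): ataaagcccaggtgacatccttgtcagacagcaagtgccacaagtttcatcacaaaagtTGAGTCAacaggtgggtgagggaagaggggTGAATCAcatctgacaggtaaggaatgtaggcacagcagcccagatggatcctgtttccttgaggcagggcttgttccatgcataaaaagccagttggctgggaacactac
SPRR2A (chr1:153057513-153057712, - strand): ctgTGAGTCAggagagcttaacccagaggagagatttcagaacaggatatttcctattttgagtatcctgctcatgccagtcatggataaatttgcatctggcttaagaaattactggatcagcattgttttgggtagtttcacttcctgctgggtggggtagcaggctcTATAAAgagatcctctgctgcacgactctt
IVL (chr1:152908346-152908545, + strand): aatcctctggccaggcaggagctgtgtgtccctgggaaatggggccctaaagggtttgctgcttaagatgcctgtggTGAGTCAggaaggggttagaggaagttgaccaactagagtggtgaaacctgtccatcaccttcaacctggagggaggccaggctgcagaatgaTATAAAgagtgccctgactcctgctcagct
SBSN (chr19:35528312-35528511, - strand): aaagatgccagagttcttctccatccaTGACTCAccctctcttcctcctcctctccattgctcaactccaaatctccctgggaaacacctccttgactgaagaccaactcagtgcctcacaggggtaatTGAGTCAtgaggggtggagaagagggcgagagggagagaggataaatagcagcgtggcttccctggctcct
KLK5 (chr19:50953039-50953238, - strand): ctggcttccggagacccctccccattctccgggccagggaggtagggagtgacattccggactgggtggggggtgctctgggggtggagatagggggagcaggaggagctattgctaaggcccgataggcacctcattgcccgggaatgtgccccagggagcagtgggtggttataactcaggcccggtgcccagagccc
SERPINB13 (chr18:63587143-63587342, + strand): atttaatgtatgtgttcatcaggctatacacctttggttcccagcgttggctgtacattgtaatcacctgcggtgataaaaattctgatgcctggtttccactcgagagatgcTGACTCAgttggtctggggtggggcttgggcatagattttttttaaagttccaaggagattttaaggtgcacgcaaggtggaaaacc
SERPINB3 (chr18:63661894-63662093, - strand): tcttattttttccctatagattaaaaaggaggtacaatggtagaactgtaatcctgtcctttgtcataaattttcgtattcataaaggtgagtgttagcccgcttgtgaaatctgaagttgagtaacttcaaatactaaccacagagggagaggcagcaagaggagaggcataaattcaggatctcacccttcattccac
SERPINB4 (chr18:63644257-63644456, - strand): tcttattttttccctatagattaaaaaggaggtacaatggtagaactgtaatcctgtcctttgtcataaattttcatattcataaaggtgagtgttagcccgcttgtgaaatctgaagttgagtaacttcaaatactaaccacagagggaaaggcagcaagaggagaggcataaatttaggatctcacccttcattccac
The letters of SERPINB3 and SERPINB4 match at 296 of 300 bases (98.7%) over the whole RefSeq window, which runs 50 bases past the start. SPRR1A and SPRR1B, both small proline-rich genes, match without gaps at 112 of 300 (37.3%). Both counts went position by position without alignment, so an inserted or lost base lowers them. A low count therefore does not show that the promoters are unrelated.

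Over the whole window, 36 of the 48 genes had a RefSeq entry to search. TGANTCA, which reads the same on both strands, stood in a window of 17 of the 36 (47.2%), against 9.37% of 27305 genes in the RefSeq table. TATAAA on either strand stood in 13 (36.1%), against 14.0%. The matches were uneven between families. All 8 searched genes from the epidermal differentiation complex on chromosome 1 held TGANTCA and 7 held TATAAA, whereas none of the 6 searched kallikreins held either. RPTN, FLG and CRNN from this complex, and LCN2 and ALOXE3, held TGANTCA only as TGAATCA or TGATTCA. The other matching genes held it as TGAGTCA or TGACTCA. By response to siE7, 5 of 9 lower genes, 2 of 6 higher genes and 4 of 8 tested genes without a call held TGANTCA, so it stood on both sides. Among all tested genes with an entry, 9.27% of the lower and 7.02% of the higher ones held it. A match describes letters and is not a measured binding site, and the lack of one says only that these letters are not in this window.

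**Figure D1:**
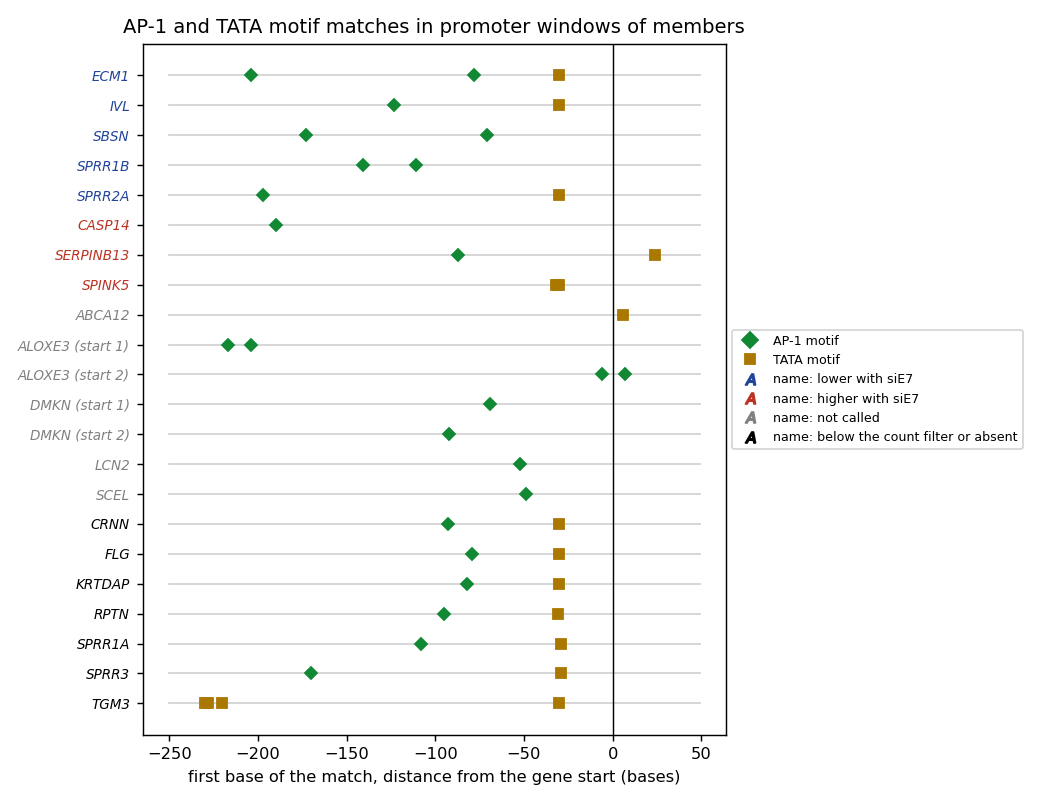
Position of each AP-1 and TATA box match in the promoter windows of the genes that hold at least 1, with the distance from the RefSeq start in bases on the x axis and 1 line per window. In 11 of the 13 genes with a TATA box match, 1 begins 29 to 32 bases before the start, while AP-1 matches lie anywhere from -217 to 7.

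Of the 34 tested genes, 8 were higher with siE7 (23.5%, against 18% of all tested genes) and 13 were lower (38.2%, against 16%). The DEGs numbered 6 upregulated genes (background 7.38%) and 10 downregulated genes (background 4.84%). The upregulated DEGs were the protease inhibitors SPINK5, SLPI, SERPINB3, SERPINB4 and SERPINB13 and the caspase CASP14. The downregulated DEGs were the precursors SPRR1B, SPRR2A, SPRR2D and PPL, the kallikreins KLK5, KLK6, KLK7 and KLK10, and the secreted proteins SBSN and ECM1. CSTA and ELOVL4 were higher, and IVL, CSTB and PI3 lower, without passing the fold threshold. The 3 siE7 libraries all lay above the 3 siNC libraries for 8 genes (background 24.9%) and all below them for 16 (background 22.7%). The median log2 fold change was -0.28, beside 0.08 over all tested genes. Under scaling by library totals alone both moved up, to -0.11 and 0.25. The median of these genes was -0.43 without siE7 replicate 1 and -0.17 without siE7 replicate 3, beside 0.02 and 0.06 over all tested genes. Since a gene can enter the test through the group where it is high, the counts were also taken with at least 10 counts required in every library, which left 31 of these genes with 6 higher and 13 lower. The 8 higher genes came down to 5 without siNC replicate 1, siNC replicate 3 or siE7 replicate 3.

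**Figure D2:**
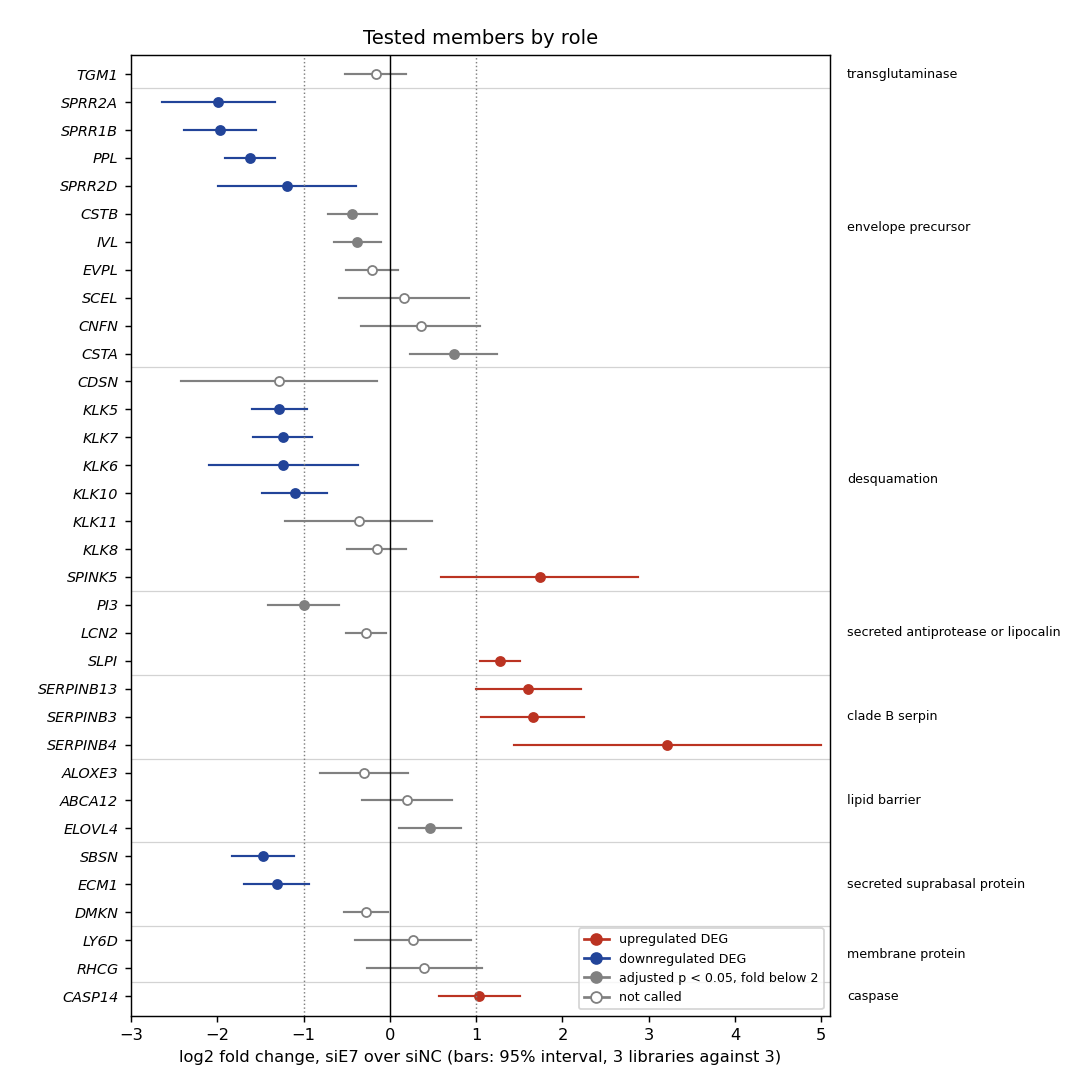
Log2 fold change of siE7 over siNC for the 34 tested genes, grouped by role, with bars for the 95% interval of edgeR's fit and dotted lines at a log2 fold change of -1 and 1. All 3 clade B serpins lie to the right, from 1.60 to 3.22, and 4 kallikreins lie close together between -1.28 and -1.10.

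All 47 genes together summed to 1820, 1863 and 1843 CPM with siNC and to 1652, 1376 and 1305 CPM with siE7. The sums of the groups did not overlap, and siE7 replicate 1 was the nearest to siNC. It was also the siE7 library nearest to siNC for 7 of the 13 lower genes, beside 56.5% of all lower genes, and for 6 of the 8 higher genes, beside 47.7% of all higher genes.

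Of the cross-linking enzymes, transglutaminases, only TGM1 was tested. TGM1, the membrane-bound enzyme of keratinocytes, stood at 15.1 to 21.8 CPM over the 6 libraries and its groups overlapped. Its log2 fold change was -0.17 (95% interval -0.52 to 0.19, edgeR adjusted p = 0.45). Without siE7 replicate 1 it was -0.39 and was called lower (edgeR adjusted p = 0.0018). TGM5 had 26 counts over all libraries.

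Among the 13 envelope precursors, 10 were tested. Of these, 6 were lower (60%, beside 16% of all tested genes) and 1 was higher (10%, beside 18%). The summed level of the 13 was 956 to 983 CPM with siNC and 591 to 807 CPM with siE7. Much of this gap was that of PPL, whose means were 249 CPM with siNC and 80.9 CPM with siE7. The small proline-rich proteins, short cross-bridging precursors, fell in all 3 tested cases. SPRR1B stood at 9.88, 9.69 and 10.8 CPM with siNC and at 2.77, 2.14 and 2.85 CPM with siE7. Its groups were far apart, 3.92-fold in the means, with a log2 fold change of -1.97 (SE 0.19, edgeR adjusted p = 2.7e-05). SPRR2A stood at 3.48, 4.20 and 4.47 CPM with siNC and at 0.607, 1.38 and 1.08 CPM with siE7. No siE7 library reached the lowest siNC library, and the log2 fold change was -1.99 (SE 0.30, edgeR adjusted p = 5.2e-04). SPRR2D stood at 1.34, 1.84 and 1.63 CPM with siNC and at 0.843, 0.870 and 0.393 CPM with siE7. The gap between its groups was narrow, the log2 fold change was -1.19 (SE 0.37, edgeR adjusted p = 0.027), and the call was lost without siNC replicate 2 (-1.09), siNC replicate 3 (-1.19) or siE7 replicate 3 (-0.90). SPRR1A, of the same family as SPRR1B, had 5 to 7 counts in each siNC library and 0 to 2 in each siE7 library, too few to test. SPRR2E had 6 counts in all and SPRR3 had 4.

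SPRR genes are near-identical within a family, and counting can split reads between copies. Summed as 1 gene, SPRR1A and SPRR1B gave 249, 249 and 291 counts with siNC and 84, 60 and 87 counts with siE7, a log2 fold change of -1.98 (SE 0.19, edgeR adjusted p = 2.3e-05). The 7 SPRR2 genes in the table summed to 129, 158 and 185 counts with siNC and 45, 64 and 47 counts with siE7, a log2 fold change of -1.79 (SE 0.24, edgeR adjusted p = 2.4e-04). Both families stayed lower as sums, with every siE7 library below every siNC library.

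The plakins PPL and EVPL, periplakin and envoplakin, form the scaffold on which the envelope begins, and they gave different values. PPL stood at 244, 248 and 255 CPM with siNC and at 96.2, 73.5 and 73.0 CPM with siE7. It fell 3.08-fold in the means, with a log2 fold change of -1.62 (SE 0.13, edgeR adjusted p = 8e-06), the smallest p among the lower precursors. EVPL, the most abundant of the 34 genes by CPM, stood at 473, 452 and 476 CPM with siNC and at 497, 371 and 348 CPM with siE7. siE7 replicate 1 was above all siNC libraries and the other two were below them, and the log2 fold change was -0.20 (95% interval -0.50 to 0.09, edgeR adjusted p = 0.27). Without siE7 replicate 1, EVPL was called lower at -0.44 (edgeR adjusted p = 1.6e-08), and PPL stood at -1.83. The difference between the 2 genes was not tested.

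IVL encodes involucrin, an early precursor cross-linked beneath the membrane. It stood at 157, 181 and 161 CPM with siNC and at 146, 127 and 111 CPM with siE7. The groups did not overlap but lay close, and the log2 fold change was -0.38 (SE 0.13, edgeR adjusted p = 0.038). The call of IVL was lost without siNC replicate 1 (-0.42), 2 (-0.32) or 3 (-0.41), without siE7 replicate 2 (-0.37) or 3 (-0.28), and with upper-quartile factors (-0.35) or library totals (-0.21). The cystatins, cysteine protease inhibitors that are also cross-linked into the envelope, moved in opposite directions. CSTA was higher, with a log2 fold change of 0.74 (SE 0.23, edgeR adjusted p = 0.028), and CSTB was lower at -0.43 (SE 0.13, edgeR adjusted p = 0.022). CSTA kept its direction but lost its call when any library but siE7 replicate 1 was left out, with values of 0.73, 0.79 and 0.69 without siNC replicates 1, 2 and 3 and 0.63 and 0.65 without siE7 replicates 2 and 3. CSTB lost its call without siNC replicates 2 (-0.36) or 3 (-0.45), siE7 replicates 2 (-0.40) or 3 (-0.38), or with library totals (-0.27). Cornifelin (CNFN) and sciellin (SCEL), 2 further envelope components, stood at 0.742 to 1.82 CPM with overlapping groups, at 0.36 (95% interval -0.33 to 1.05) and 0.16 (-0.59 to 0.92).

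The fused S100 and calmodulin-like genes on the list were close to absent in both groups. The fused S100 proteins filaggrin (FLG), cornulin (CRNN) and repetin (RPTN) had 4, 1 and 10 counts over all 6 libraries. Calmodulin-like CALML3 and CALML5 had 13 and 48 counts. None of the 13 genes below the filter exceeded 17 counts in any library, and no difference in them was detectable at this depth.

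**Figure D3:**
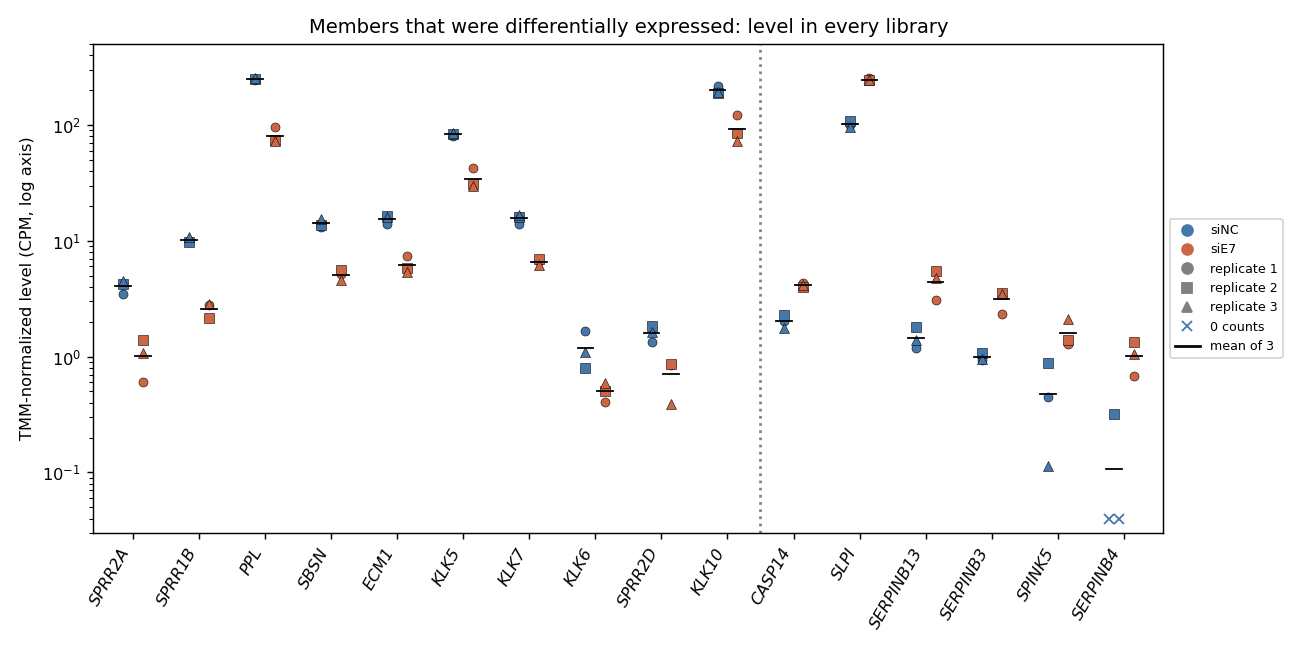
Level of the 16 DEGs in every library (CPM on a log axis), ordered by log2 fold change, with downregulated genes to the left of the dotted line. Horizontal bars are means of 3 libraries and crosses mark libraries with 0 counts. The groups do not overlap for any of the 16 genes, which were picked as DEGs on these same libraries, and they lie closest for KLK6. Over all tested genes, siE7 lies wholly above siNC for 24.9% and wholly below for 22.7%.

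Of the 9 desquamation genes, 8 were tested. Among these, 4 kallikreins were lower (50%, beside 16% of all tested genes). SPINK5, the gene of their inhibitor LEKTI, was higher (12.5%, beside 18%). The 7 kallikreins on the list summed to 334, 309 and 312 CPM with siNC and to 192, 138 and 124 CPM with siE7. KLK5 and KLK7, the trypsin-like and chymotrypsin-like proteases best known for cutting corneodesmosomes, both fell. KLK5 stood at 79.8, 83.2 and 85.3 CPM with siNC and at 42.1, 30.7 and 29.4 CPM with siE7, a log2 fold change of -1.28 (SE 0.15, edgeR adjusted p = 8.6e-05). KLK7 stood at 14.1, 16.2 and 16.6 CPM with siNC and at 6.68, 6.96 and 6.15 CPM with siE7, a log2 fold change of -1.24 (SE 0.16, edgeR adjusted p = 1.6e-04). In both genes the highest siE7 library was well below the lowest siNC library.

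KLK10 stood at 218, 190 and 191 CPM with siNC and at 122, 84.5 and 72.1 CPM with siE7, a log2 fold change of -1.10 (SE 0.17, edgeR adjusted p = 6.9e-04). Its groups did not overlap, and it stayed lower but missed the fold threshold without siE7 replicate 3 or with library totals (both -0.95). KLK6, a trypsin-like protease at a low level, stood at 1.66, 0.801 and 1.10 CPM with siNC and at 0.405, 0.507 and 0.589 CPM with siE7, a log2 fold change of -1.24 (SE 0.40, edgeR adjusted p = 0.032). The gap between its groups was small, and its call was lost without siNC replicates 1 (-0.93) or 3 (-1.30), siE7 replicates 2 (-1.25) or 3 (-1.37), or with library totals (-1.07). KLK8 and KLK11, of the same protease family, had overlapping groups at -0.15 (95% interval -0.49 to 0.19) and -0.36 (-1.21 to 0.49). KLK8 was called lower without siE7 replicate 1, at -0.34. In the annotation KLK8 overlaps KLK9 and a further gene on the same strand, so its reads may be shared. KLK13 had 22 counts.

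SPINK5 stood at 0.446, 0.881 and 0.114 CPM with siNC and at 1.28, 1.38 and 2.13 CPM with siE7. All siE7 libraries were above all siNC libraries at this low level, with a log2 fold change of 1.74 (SE 0.52, edgeR adjusted p = 0.024). SPINK5 passed the count filter only through siE7, which favours this direction. Its call was lost without siNC replicate 1 (1.69), siNC replicate 3 (1.25) or siE7 replicate 3 (1.47), and the value was 2.51 without siNC replicate 2. CDSN, corneodesmosin, is the adhesive protein of the junctions that kallikreins cut. It stood at 1.28 to 1.55 CPM with siNC and 0.109 to 0.981 CPM with siE7, without overlap, at a log2 fold change of -1.29 that missed the threshold (SE 0.52, edgeR adjusted p = 0.076). CDSN was called lower without siE7 replicate 1 (-1.39) or 3 (-1.94), but stood at -0.82 without siE7 replicate 2, so the value depends on which siE7 library is left out. PSORS1C1 overlaps CDSN on the opposite strand, so its reads may be uncertain where strand was not used in counting. The same holds for the called genes IVL, PPL, KLK5, KLK6, KLK7, KLK10, SPINK5 and SERPINB3, which also overlap a gene on the opposite strand. KLK6 overlaps a gene on its own strand as well.

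Of the 3 secreted antiprotease and lipocalin genes, SLPI rose, PI3 fell and LCN2 missed the threshold. Over all tested genes, 18% were higher and 16% lower. SLPI encodes an inhibitor of neutrophil elastase that epithelia secrete. It stood at 99.1, 109 and 96.0 CPM with siNC and at 252, 242 and 243 CPM with siE7. Its groups were tight and well apart, 2.42-fold in the means, at a log2 fold change of 1.28 (SE 0.11, edgeR adjusted p = 1e-05), the smallest p among the higher genes. PI3, which encodes elafin, another elastase inhibitor and a transglutaminase substrate, stood at 21.2 to 23.1 CPM with siNC and at 9.13 to 14.7 CPM with siE7. Its log2 fold change of -0.9993 (SE 0.19, edgeR adjusted p = 0.0021) lay just inside the fold threshold of -1, on the side that is not a DEG. It passed that threshold without siE7 replicate 1 (-1.31) or siNC replicate 2 (-1.04). LCN2, a lipocalin that binds bacterial siderophores, stood at 245, 270 and 255 CPM with siNC and at 230, 208 and 197 CPM with siE7. The groups of LCN2 did not overlap, yet the log2 fold change of -0.28 (95% interval -0.51 to -0.04) had an edgeR adjusted p of 0.068. It was called lower by DESeq2 (-0.33) and without siE7 replicate 1 (-0.40).

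The 3 clade B serpins on the list, intracellular inhibitors of proteases that squamous cells make, were all higher. SERPINB4 passed the count filter only through its siE7 libraries, so its direction was not free to vary. Over all tested genes, 18% were called higher. SERPINB13 stood at 1.18, 1.80 and 1.40 CPM with siNC and at 3.10, 5.44 and 4.81 CPM with siE7, a log2 fold change of 1.60 (SE 0.28, edgeR adjusted p = 0.0013). SERPINB3, the squamous cell carcinoma antigen, stood at 0.932, 1.08 and 0.947 CPM with siNC and at 2.33, 3.51 and 3.50 CPM with siE7, a log2 fold change of 1.65 (SE 0.27, edgeR adjusted p = 9.7e-04). siE7 replicate 1 was the lowest siE7 library for both genes and was still above every siNC library. SERPINB4, the near-identical neighbour whose promoter letters are shown above, had 0, 8 and 0 counts with siNC and 20, 37 and 32 counts with siE7, that is 0, 0.320 and 0 CPM against 0.675, 1.34 and 1.05 CPM. Its log2 fold change of 3.22 (SE 0.81, edgeR adjusted p = 0.010) rests on 1 siNC library with any read. Without siNC replicate 2 the fitted value was 7.83, which depends on the prior count and is no bound. Reads of SERPINB3 and SERPINB4 may be split between the copies, and their sum rose from 23, 35 and 25 counts to 89, 134 and 139 counts, a log2 fold change of 1.92 (SE 0.28, edgeR adjusted p = 4.9e-04).

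Regrouped by activity after the values had been seen, the 8 protease inhibitors on the list (SPINK5, SLPI, PI3, 3 serpins and 2 cystatins) were all tested. Of these, 6 were higher and 2 lower, while over all tested genes 18% were higher and 16% lower. The calls of CSTA, SPINK5 and CSTB were lost in 5, 3 and 5 alternative settings. SPINK5 and SERPINB4 passed the count filter only through siE7, and both drop out with at least 10 counts required in every library. SERPINB3 and SERPINB4 are near-identical copies that were counted here as separate genes. The levels of the 8 inhibitors summed to 189, 214 and 193 CPM with siNC and to 335, 317 and 316 CPM with siE7. SLPI made up most of the sum in every siE7 library. Without SLPI, the other 7 inhibitors summed to 89.8, 105 and 96.9 CPM with siNC and to 83.2, 75.3 and 73.4 CPM with siE7, so the rise of the sum was that of SLPI, and the rest, mostly CSTB and PI3, summed lower in every siE7 library. Of the 6 tested kallikreins, 4 were lower and 2 had no call.

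Of the 3 tested lipid barrier genes, 1 was higher (33.3%, beside 18% of all tested genes) and none was lower. ELOVL4, which elongates the very long fatty acids of skin ceramides, stood at 11.6 to 12.6 CPM with siNC and 13.4 to 19.3 CPM with siE7, a log2 fold change of 0.46 (SE 0.17, edgeR adjusted p = 0.049). This call was the least stable of the 21, being lost in 10 of 14 alternative settings with values of 0.35 to 0.49, among them the removal of any library but siE7 replicate 1 and the fits by DESeq2 and limma-voom. The lipoxygenase ALOXE3 and the lipid transporter ABCA12 had overlapping groups, at -0.30 (95% interval -0.81 to 0.22) and 0.20 (-0.32 to 0.72). ALOX12B, the partner lipoxygenase, had 6 counts with siNC and 26 with siE7, below the filter.

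Of the 3 tested secreted suprabasal proteins, SBSN and ECM1 fell (66.7%, beside 16% of all tested genes). Suprabasin (SBSN) stood at 13.3, 13.7 and 15.5 CPM with siNC and at 5.20, 5.54 and 4.58 CPM with siE7, a log2 fold change of -1.47 (SE 0.17, edgeR adjusted p = 7.7e-05). ECM1, an extracellular matrix glycoprotein of the epidermis, stood at 13.9, 16.3 and 16.0 CPM with siNC and at 7.32, 5.83 and 5.40 CPM with siE7, a log2 fold change of -1.31 (SE 0.17, edgeR adjusted p = 2.3e-04). In both, the highest siE7 library was far below the lowest siNC library. Dermokine (DMKN), which lies in 1 gene cluster with SBSN and KRTDAP, stood at 88.6 to 96.5 CPM with siNC and 70.6 to 86.8 CPM with siE7. The groups of DMKN did not overlap, but the log2 fold change of -0.27 (95% interval -0.53 to -0.02) had an edgeR adjusted p of 0.091, and without siE7 replicate 1 it was -0.43 and called lower. KRTDAP had 1 count in all. The membrane proteins LY6D and RHCG had overlapping groups at 0.27 (95% interval -0.41 to 0.94) and 0.40 (-0.27 to 1.06), and MAL had 6 counts.

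CASP14, the caspase of cornifying keratinocytes that takes part in filaggrin breakdown, stood at 2.03, 2.28 and 1.78 CPM with siNC and at 4.32, 3.99 and 4.19 CPM with siE7. The groups of CASP14 were well apart, with a log2 fold change of 1.04 (SE 0.21, edgeR adjusted p = 0.0035). It was higher in every alternative setting, but missed the fold threshold in 4 of them, such as without siE7 replicate 1 (0.95) or siNC replicate 3 (0.94).

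Per kilobase of exon, the order of the levels differed from that of the counts. With siNC, SLPI (170 CPM per kilobase) and LCN2 (161) led, followed by IVL (77.3), EVPL (63.4), KLK10 (52.6), KLK5 (50.1), PI3 (40.4) and PPL (32.3). With siE7, SLPI (412) stood alone, LCN2 was at 133, IVL at 59.5 and EVPL at 55.0, and KLK10 and KLK5 were at 24.5 and 20.6. SPRR1B, at 16.4 CPM per kilobase with siNC and 4.17 with siE7, was the most abundant SPRR gene. Exon lengths were the union of annotated exons, so genes with many isoforms are understated on this scale.

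**Figure D4:**
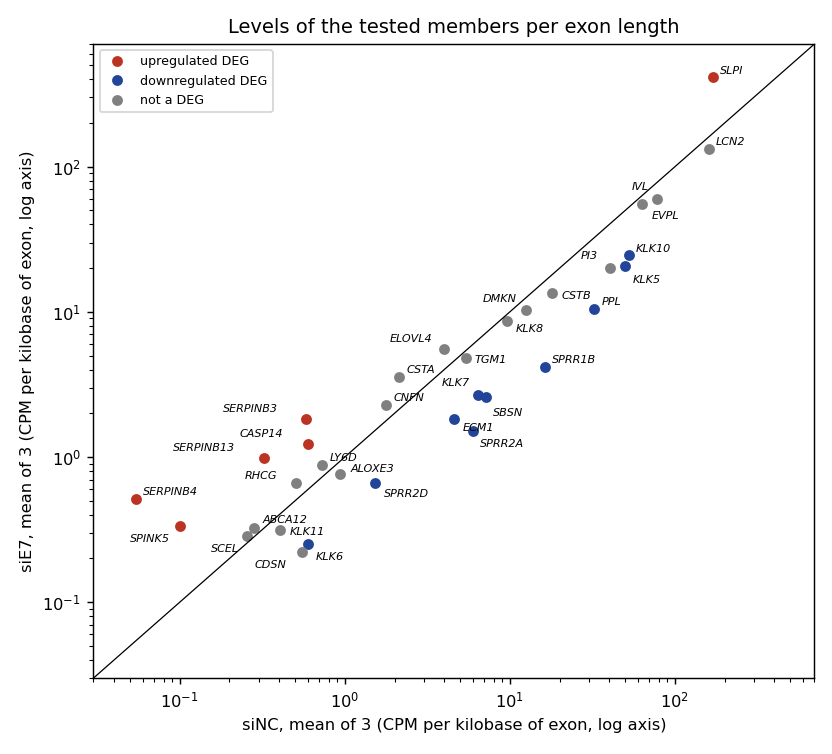
Mean level of the 34 tested genes per kilobase of annotated exon with siNC (x axis) and siE7 (y axis), both on log axes, with the line of equal levels. SLPI is the highest point in both groups, and the other 5 upregulated DEGs sit at the low end, below 2 CPM per kilobase.

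The 3 gene clusters described next hold many of these genes, as annotated on GRCh38. In the epidermal differentiation complex (chr1:151982915-153632039), 23 genes were tested, of which 3 were higher and 14 lower, the members being lower in 4 of 4 cases. Among its 19 tested genes outside the list, 3 were higher and 10 lower. The higher ones were TCHHL1, TCHH and FLG-AS1. The lower ones were PRR9, PGLYRP4 and the S100 calcium-binding genes S100A2, S100A3, S100A6, S100A7, S100A8, S100A9, S100A13 and S100A16. The 14 lower genes were 60.9% of the 23, and over all tested genes 18% were higher and 16% lower. The number of higher genes in the whole complex was 5 without siE7 replicate 1 or with library totals, and 1 with at least 10 counts required in every library. In the kallikrein cluster (chr19:50819146-51084245), 8 genes were tested, with none higher and 5 (62.5%) lower, beside 16% of all tested genes. The fifth of these was CTC-518B2.8, the next tested gene after KLK8, with which it may share reads. It is outside the list, as is KLK14, which had no call at -0.48. The lower genes of this cluster numbered 4 with library totals and 6 without siE7 replicate 1. They also numbered 4 without siNC replicate 1 or 3, or without siE7 replicate 2 or 3. With no filter on low counts, 1 gene of this cluster was higher. In the clade B serpin cluster (chr18:63476958-64019779), 8 genes were tested, with 3 higher (37.5%, beside 18%) and 1 lower (12.5%, beside 16%). The higher ones were SERPINB13, SERPINB4 and SERPINB3, which are adjacent among the tested genes. SERPINB2, outside the list, was lower at -0.55 (SE 0.18, edgeR adjusted p = 0.038), and SERPINB5, SERPINB7 and SERPINB8 had no call at 0.14, -0.45 and -0.32. No gene of this cluster was lower with library totals or without siNC replicate 1, 2 or 3, and 3 were lower without siE7 replicate 1. With at least 10 counts required in every library, 2 genes of this cluster were higher.

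**Figure D5:**
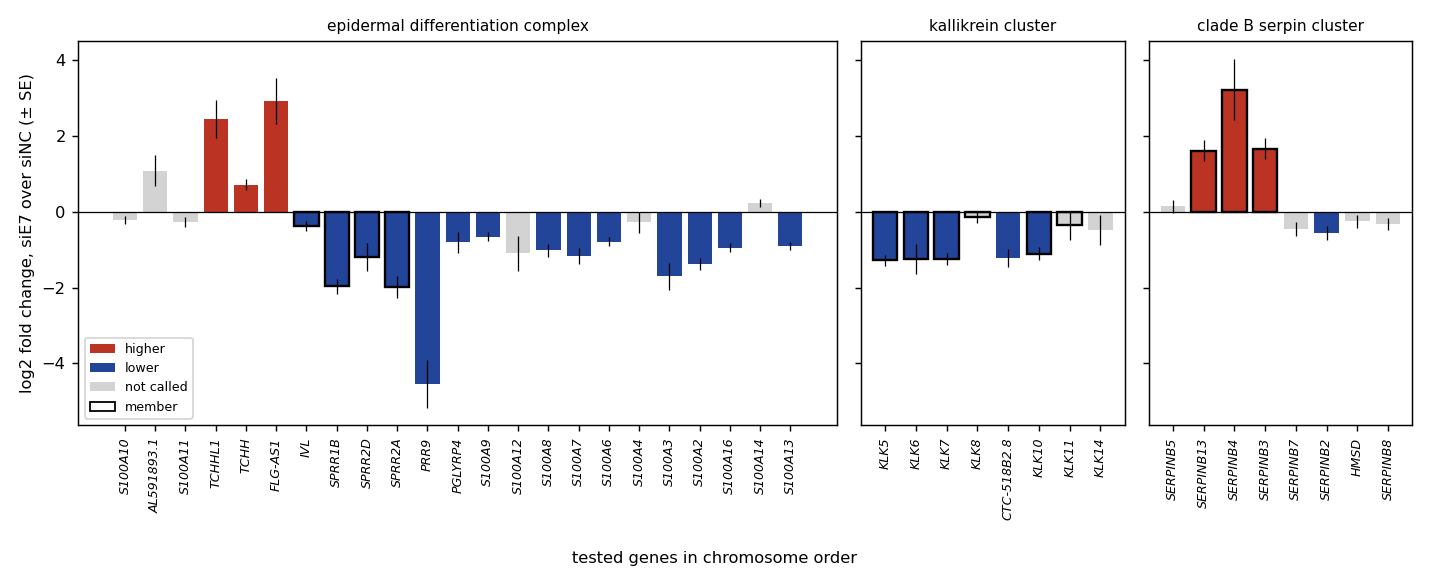
Log2 fold change (bars, with SE) of the tested genes in the 3 clusters, in chromosome order, with listed genes outlined. In the serpin cluster the 3 red bars stand side by side, from 1.60 to 3.22, and in the kallikrein cluster every bar points down, although KLK8, which had no call, turned to 0.01 with library totals. The tallest bars of the first panel, PRR9 and FLG-AS1, are not listed genes.

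A second list held 92 further genes of cornification, desquamation and barrier lipids, of which 61 were in the table and 36 were tested. Here 3 were higher (TCHHL1, TCHH and CTSD; 8.33%, beside 18% of all tested genes) and 12 were lower (33.3%, beside 16%), with a median log2 fold change of -0.20. With library totals the split was 6 higher and 9 lower. Without siE7 replicate 1 there were 18 lower genes. LORICRIN, FLG2 and most late cornified envelope (LCE) genes were absent from the table. The lower genes with the smallest p-values were CST6, ST14, STS and UGCG. CST6, cystatin M/E, an inhibitor of the proteases that activate transglutaminase, stood at 65.2, 74.6 and 72.8 CPM with siNC and at 15.4, 12.1 and 16.0 CPM with siE7, a log2 fold change of -2.29 (SE 0.14, edgeR adjusted p = 2e-06). ST14, matriptase, the membrane protease upstream of kallikreins, stood at 343, 321 and 320 CPM with siNC and at 136, 108 and 102 CPM with siE7, a log2 fold change of -1.51 (SE 0.13, edgeR adjusted p = 1.2e-05). Neither gene's groups came close to each other. STS, steroid sulfatase, was lower at -1.84 (SE 0.23) and UGCG, the glucosylceramide synthase, at -1.24 (SE 0.19). Among the higher genes, the hair and tongue envelope protein trichohyalin (TCHH) was at 0.71 (SE 0.16), its relative TCHHL1 at 2.44 (SE 0.50) and the lysosomal protease cathepsin D (CTSD) at 0.61 (SE 0.16).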

How the data were processed

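RNA from 6 SCC-9 libraries (3 siNC, 3 siE7, grouped by their titles) was poly(A)-selected and sequenced in pairs on an Illumina NovaSeq with a directional kit. The authors deposited raw read counts per gene, whole numbers without normalization, and the submitters' processing notes name HISAT2, DESeq2 and GRCh38. The counting tool, annotation release and use of strand in counting are not given in the sources used here. Depth was 25608192 to 29550264 counts, and intervals cover the spread between libraries.

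Genes were kept by filterByExpr of edgeR 4.0.16 (R 4.3.3), scaled by TMM, and compared by the quasi-likelihood F-test (robust, no covariate) with Benjamini-Hochberg adjustment over the 14661 genes kept. edgeR stands in place of the authors' DESeq2, which was run as an alternative (1.42.0), with limma-voom (limma 3.58.1), RLE and upper-quartile factors, library totals, no filter, a minimum of 10 counts in every library, a replicate block, and each library left out. Fits were tested on simulated data. SE is the log2 fold change divided by the square root of F.

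GENCODE v44 positions matched 25283 of 25349 identifiers without version (20655 with it), so another release was counted. Promoter windows are RefSeq's, 250 bases before to 50 after the start. Every listed gene is named, with values per library for DEGs and the 5 most abundant tested genes. From the second list, the 4 smallest p-values per direction and the tested relatives of the KLK and serpin genes are given. SPRR, KLK and serpin relatives below the filter are not given singly. The members and lists were chosen with earlier results of these data known. Tables were made with pandas 2.3.3 and numpy 2.4.6 under Python 3.11.15, and plots with matplotlib 3.10.9. Protein sequences were not used here.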

Additional observations from a re-analysis of the deposited data

How the results depend on the processing

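No called gene changed sign. Over 14 alternative settings, 7 of the 8 higher and all 13 lower genes were shared with DESeq2, with limma-voom and with the replicate block, whose median log2 fold change was -0.28. The replicate numbers share no label of origin, and same-numbered libraries did not deviate together (correlations of -0.06, -0.02 and -0.08), so the block was not read as a pairing. It lost ELOVL4 and added CDSN (-1.47). With each library left out in turn, the number of higher genes ranged from 5 (without siNC replicate 1, siNC replicate 3 or siE7 replicate 3) to 8. Such fits have fewer libraries. Without siE7 replicate 1, all 21 calls were kept and 6 more genes were lower. Library totals kept 8 higher and 10 lower genes, and gave 6 higher genes on the second list in place of 3. PI3 passed the fold threshold in 7 settings. Depth left 13 genes below the filter, which were not tested.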
